A study of Homo sapiens with 3 samples.

Results

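LINC-named RNAs, the long intergenic noncoding RNAs whose official symbol is LINC followed by digits, were examined in Caco-2, a cell line derived from a human colorectal tumour that is grown to mimic the gut lining. The members were chosen by raw read count: they are the 207 genes with such a symbol and at least 20 counts in at least 1 library, of 60664 gene identifiers in all. The table held 2271 LINC-named genes. Of these, 1433 had no count in any library and 631 had a highest count of 1 to 19. The counts themselves chose the members, so levels and differences are given as a description, and a gene that reached 20 counts in a single library had to stand higher there.

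The study compared 3 groups of wild-type Caco-2 cells with 1 RNA-seq library each. Cells of the DSS with polydatin group received 30 µM polydatin for 2 h and then polydatin together with 3% DSS for 8 h. Cells of the DSS group received 3% DSS for 8 h, and the control cells carried the control treatment label. DSS (dextran sulfate sodium) is a sulfated sugar polymer that causes colitis when given to rodents, and polydatin is the glucoside form of the plant stilbene resveratrol. The study's title names ferroptosis as its subject. No group was replicated, so no difference below has a replicate check, and each ratio compares 2 libraries.

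A long intergenic noncoding RNA is transcribed by RNA polymerase II from its own locus, is usually spliced and polyadenylated, and has no annotated long open reading frame. Such RNAs are commonly low in level and restricted to few cell types, and many are trimmed or destroyed in the nucleus by the RNA exosome. The LINC symbol is a placeholder given when no function is established, so the members share a naming rule and not a pathway. Some have been studied in colon and other cancers, often as RNAs that bind proteins or microRNAs.

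Library totals lay between 16667622 and 18825914 counts. Counts were scaled to CPM (counts relative to the library total corrected by a TMM factor, a scaling that assumes most genes are alike), and 20 counts corresponded to 1.08 to 1.15 CPM. Intestinal epithelial markers summed to 7592 CPM in DSS with polydatin, 9356 CPM in DSS and 7800 CPM in control, with CDX1 the marker at 0 in each library. The summed level of 7 leukocyte markers was 4.74 to 9.82 CPM over the libraries, that of 5 endothelial markers 13.5 to 24.9 CPM, that of 5 neuronal markers 7.74 to 8.87 CPM and that of 7 fibroblast markers 55.0 to 68.2 CPM. PTPRC, a defining marker of leukocytes, and KDR, an endothelial receptor gene, had 0 counts in all libraries. Other markers on these lists were detected: LYZ, the lysozyme gene, had 39 counts in DSS with polydatin, 83 in DSS and 14 in control. In the same order of libraries the endothelial genes VWF and PECAM1 had 68, 22 and 9 counts and 166, 297 and 443 counts. The fibroblast gene LUM had 27, 21 and 3 counts, while COL1A1 had 755, 701 and 720. PDGFRA had 164, 186 and 342 counts and PDGFRB 93, 74 and 138. Among the epithelial markers, SI had 149, 172 and 853 counts. The part of these markers in the results was not tested.

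Of the 207 members, 161 are annotated as lincRNA in GENCODE 29, 14 as antisense and 1, LINC02693, as protein-coding. They lie on many chromosomes, with 21 on chromosome 1, 19 on chromosome 2 and 17 on chromosome 6. The longest annotated transcript had a median of 1962 nt in 205 annotated members, against 1806 nt in 1286 other long noncoding genes with the same count minimum and 3733 nt in protein-coding genes. Members had a median of 3 exons and 15.1% had a single exon, against 30.6% of the other long noncoding genes. Their median GC content of 47.5% lay beside 47.6% in the other long noncoding genes and 48.2% in protein-coding genes. A total of 96 members overlapped another annotated gene, 80 of them one on the opposite strand. The strand setting of the counting is not given in the sources used here, so reads of these members and their partners cannot be told apart. Among the members described below, LINC00261, LINC00310, LINC00339, LINC00467, LINC00472, LINC00662, LINC00862, LINC01089, LINC02693 and LINC02882 overlap a gene on the same strand. LINC00239, LINC00511, LINC00649, LINC00667, LINC00857, LINC01133, LINC01232, LINC01291, LINC01414, LINC01572, LINC01764, LINC02086, LINC02889 and LINC02904 overlap one on the opposite strand, as do LINC00339, LINC00662, LINC00862, LINC01089, LINC02693 and LINC02882 of the same-strand group.

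RefSeq promoter windows (250 bases before to 50 after the start, GRCh38.p14) were matched to 138 of the 207 members. Of these, 6 are shown because their RNAs lay far apart between libraries and their RefSeq and GENCODE starts lie close together: LINC03016, LINC01134, LINC00472 and LINC01564, higher in DSS than in control, and LINC01133 and LINC01234, lower. Capitals mark matches on either strand to TGANTCA (AP-1, the factor of immediate early responses), TGACNNNGC (the core of the antioxidant response element bound by NRF2) and TGATGNAA (a composite site of ATF4, the regulator of the amino acid response). Coordinates and strand are chr7:7254904-7255203 (+) for LINC03016, chr1:3900154-3900453 (+) for LINC01134, chr6:71420696-71420995 (-) for LINC00472, chr6:53628130-53628429 (+) for LINC01564, chr1:159960974-159961273 (+) for LINC01133 and chr12:113773634-113773933 (-) for LINC01234.
LINC03016: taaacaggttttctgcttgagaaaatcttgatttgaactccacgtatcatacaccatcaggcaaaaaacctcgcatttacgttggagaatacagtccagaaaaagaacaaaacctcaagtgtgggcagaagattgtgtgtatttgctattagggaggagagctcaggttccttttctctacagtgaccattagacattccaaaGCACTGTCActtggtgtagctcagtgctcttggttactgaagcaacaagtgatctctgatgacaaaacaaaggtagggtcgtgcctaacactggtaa
LINC01134: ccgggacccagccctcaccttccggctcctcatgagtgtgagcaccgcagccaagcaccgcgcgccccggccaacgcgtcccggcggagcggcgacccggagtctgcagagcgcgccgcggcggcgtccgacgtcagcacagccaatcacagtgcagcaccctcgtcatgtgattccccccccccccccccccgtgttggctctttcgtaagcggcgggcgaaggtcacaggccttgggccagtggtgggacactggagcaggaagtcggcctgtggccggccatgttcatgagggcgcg
LINC00472: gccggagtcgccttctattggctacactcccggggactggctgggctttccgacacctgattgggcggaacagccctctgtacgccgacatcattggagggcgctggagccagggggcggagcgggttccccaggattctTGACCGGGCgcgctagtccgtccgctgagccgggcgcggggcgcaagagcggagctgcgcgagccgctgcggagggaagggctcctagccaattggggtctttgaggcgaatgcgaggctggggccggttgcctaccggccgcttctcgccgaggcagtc
LINC01564: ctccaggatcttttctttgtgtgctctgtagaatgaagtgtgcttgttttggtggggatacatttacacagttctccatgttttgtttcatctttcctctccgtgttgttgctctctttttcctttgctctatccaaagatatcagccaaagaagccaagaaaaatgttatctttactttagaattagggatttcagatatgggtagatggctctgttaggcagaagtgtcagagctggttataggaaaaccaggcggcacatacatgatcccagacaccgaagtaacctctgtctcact
LINC01133: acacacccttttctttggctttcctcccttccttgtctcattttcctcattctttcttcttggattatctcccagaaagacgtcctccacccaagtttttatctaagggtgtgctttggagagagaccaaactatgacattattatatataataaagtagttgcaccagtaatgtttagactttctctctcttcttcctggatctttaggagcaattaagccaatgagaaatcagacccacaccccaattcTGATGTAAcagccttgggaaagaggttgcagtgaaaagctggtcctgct
LINC01234: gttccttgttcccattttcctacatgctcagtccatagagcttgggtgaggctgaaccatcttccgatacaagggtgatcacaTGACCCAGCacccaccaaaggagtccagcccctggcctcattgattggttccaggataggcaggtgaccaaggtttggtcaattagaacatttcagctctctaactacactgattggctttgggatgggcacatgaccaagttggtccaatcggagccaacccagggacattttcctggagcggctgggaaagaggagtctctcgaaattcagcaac

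In these windows TGACNNNGC was found at -47 in LINC03016, at -110 in LINC00472 and at -167 in LINC01234, counting the leftmost base of the match from the start site. TGATGNAA was found at position 2 of the transcribed part of LINC01133. LINC03016 also held ACGTG at -210. Neither the LINC01134 nor the LINC01564 window held any of the 8 motifs searched. The others searched were the hypoxia response core in its A form, ACGTG, and its G form, GCGTG. The NFAT5 core was searched as TGGAAA. The TATA box was searched as TATAAA, and an NF-κB motif was searched too. Both strands were searched and overlaps between motifs were allowed. Over all matched members, TGACNNNGC occurred in 28 of 138 windows (20.3%), against 13.6% of 27305 promoters in the table. TGANTCA occurred in 14 member windows (10.1%), against 7.76% of all promoters, and TGATGNAA in 8 (5.80%), against 3.67%. TATAAA occurred in 17.4% of member windows, against 12.0% of all promoters, and GCGTG in 30.4%, against 36.3%. Among the 11 members higher in DSS than in control that have a window, 3 held TGACNNNGC and 2 held TGANTCA. Among the 6 lower in DSS that have one, 2 held TGACNNNGC and 0 held TGANTCA. A match is a run of letters and not a bound site.

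Members were low in level. The mean CPM over the 3 libraries had a median of 2.90 and ran between 0.680 and 122 CPM, against a median of 2.12 CPM for the other long noncoding genes and 33.7 CPM for protein-coding genes. A mean of at least 10 CPM was reached by 41 members, and 150 members had 20 or more counts in every library. The 207 members together held 0.166% of counts in DSS with polydatin, 0.144% in DSS and 0.129% in control. Their summed level was 1585 CPM in DSS with polydatin, 1459 CPM in DSS and 1328 CPM in control. A single RNA, LINC03061, made much of that order, since the sums without it were 1383, 1322 and 1300 CPM. The other long noncoding genes also summed higher, with 13805 CPM in DSS with polydatin, 12182 CPM in DSS and 10592 CPM in control.

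**Figure D1:**
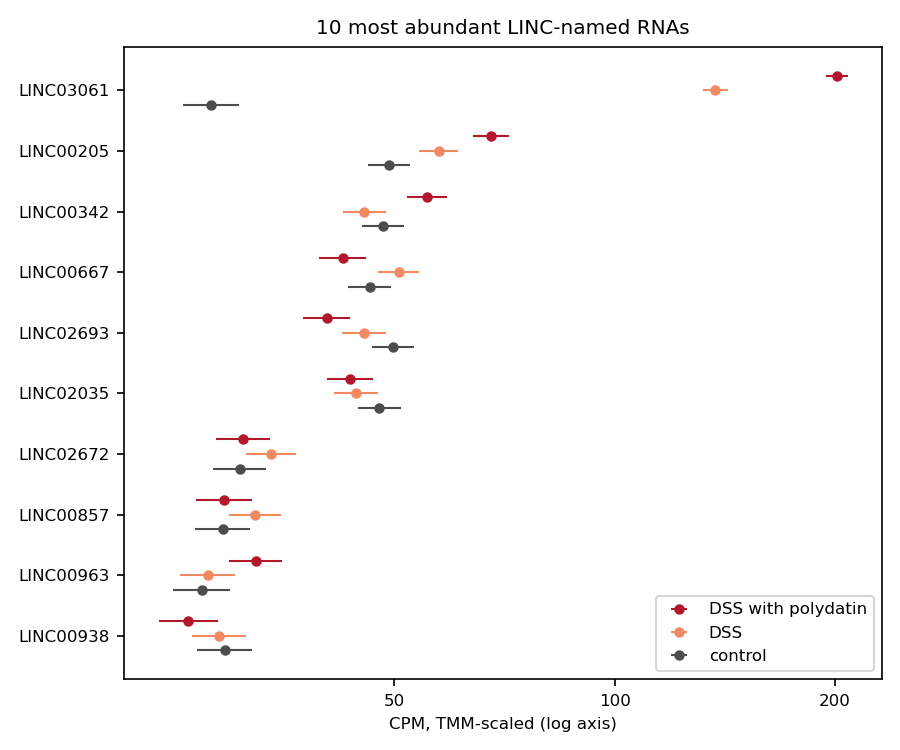
Level of the 10 most abundant LINC-named RNAs in each library, as TMM-scaled CPM on a log axis. Points are single libraries and bars are exact 95% Poisson intervals (counting error only). LINC03061 spans 28.1 to 201 CPM, while the others keep to a narrower range.

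LINC03061 (ENSG00000275216, chromosome 13, 109269634 to 109278512 on GRCh38, a single-exon lincRNA of 4205 nt) was the most abundant member by mean CPM. It had 3511 counts in DSS with polydatin, 2543 in DSS and 510 in control. The control library was the low one, and the counting intervals of the 3 levels (195 to 208, 132 to 143 and 25.7 to 30.6 CPM) did not overlap. LINC03061 stood at 4.89 times the control level in DSS (4.44 to 5.39) and at 1.47 times the DSS level in DSS with polydatin (1.39 to 1.54). Intervals in parentheses after a ratio are exact 95% Clopper-Pearson intervals on the 2 counts. They cover counting error only, because each group has 1 library and no variation between cultures or libraries enters. Reads not tagged with molecular identifiers need not come from independent molecules, so the intervals may be too narrow even for counting error. Per kilobase of longest transcript, LINC02672 had the higher mean level among the 10 most abundant members, with 76.9 CPM per kb on a 415 nt transcript, against 29.1 CPM per kb for LINC03061.

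The remaining abundant members differed less. LINC00205, whose start lies beside that of POFUT2 on the other strand, had 1182 counts in DSS with polydatin, 1065 in DSS and 893 in control. Its 3 levels kept the order of LINC03061, and the ratios were 1.17 in DSS against control (1.07 to 1.28) and 1.18 in DSS with polydatin against DSS (1.08 to 1.28). LINC00342 had 967 counts in DSS with polydatin, 843 in DSS and 877 in control. Its DSS library was the lowest of the 3, at 0.942 times control (0.856 to 1.04). LINC00667, LINC02693, LINC02035, LINC02672, LINC00857, LINC00963 and LINC00938 had ratios between 0.912 and 1.11 for DSS against control and between 0.838 and 1.16 for DSS with polydatin against DSS. LINC00857 and LINC00963 have been studied mainly in cancers of other tissues.

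A member was called higher or lower in a comparison when the ratio was at least 2-fold with an interval that excluded 1. For DSS against control, 19 members were called higher (9.18%), beside 4.16% of all 14581 genes with the same count minimum, and 7 were called lower (3.38%), beside 1.72%. The share called depends on the count of a gene, and members are low. Among genes with a highest count of 20 to 49, 12.0% of members were called higher, beside 12.0% of protein-coding genes, 7.85% of the other long noncoding genes and 9.41% of all genes. In the band of 50 to 199 counts it was 6.17% of members, 7.46% of protein-coding genes, 5.10% of the other long noncoding genes and 6.63% of all genes. At 200 counts or more, 4 of 43 members (9.30%) were called higher, beside 2.35% of protein-coding genes, 5.56% of the other long noncoding genes and 2.40% of all genes. In the same 3 bands 6.02%, 2.47% and 0% of members were called lower, beside 5.58%, 3.01% and 0.568% of all genes. The median log2 ratio of members was 0.01, beside -0.01 over all genes with the same minimum, and 104 of 207 members lay above the control level.

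**Figure D2:**
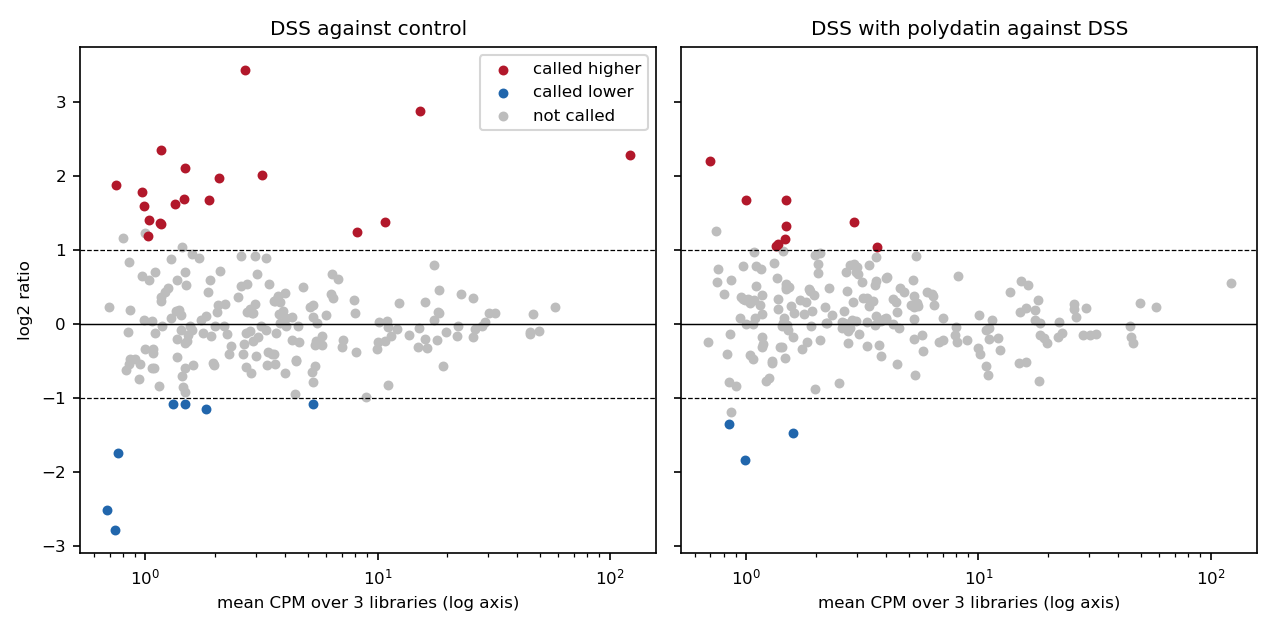
Log2 ratio of each LINC-named RNA (207 members) against its mean CPM on a log axis, for DSS against control and for DSS with polydatin against DSS. Dashed lines mark 2-fold; red and blue points were called higher and lower, and among the called points above 10 CPM all 3 are higher in DSS than in control.

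**Figure D3:**
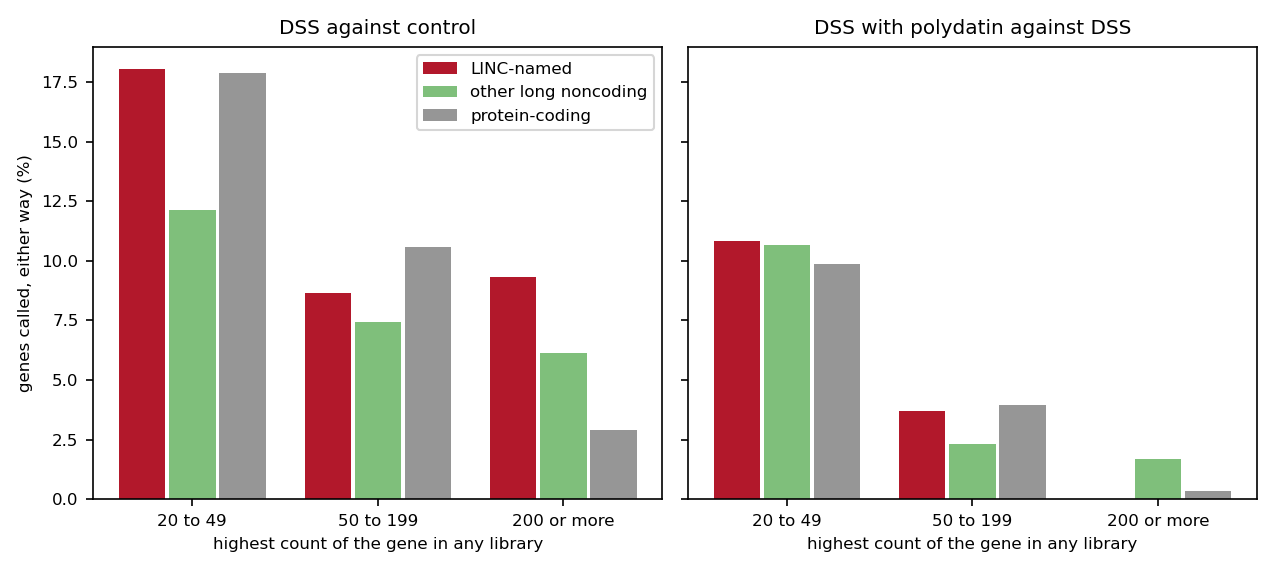
Share of genes called in either direction, in percent, by the highest count of the gene in any library, for LINC-named RNAs, other long noncoding genes and protein-coding genes. In the band of 20 to 49 counts 18.1% of LINC-named RNAs were called for DSS against control and 10.8% for DSS with polydatin against DSS, and the shares fall as counts grow in protein-coding genes.

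Among the members higher in DSS, LINC01559 (chromosome 12, 13371089 to 13387167, 3 exons), an RNA studied in gastric and pancreatic cancer, had the ratio farthest from 1 after its counting error was allowed for. It had 454 counts in DSS with polydatin, 322 in DSS and 43 in control. The control library was low, and DSS stood at 7.34 times control (5.33 to 10.3). LINC03060 (chromosome 7, 134416290 to 134432453) had 84 counts in DSS with polydatin, 55 in DSS and 5 in control. The control count is so small that the ratio of 10.8 for DSS against control has a wide interval (4.35 to 34.5). LINC03060 lies 9897 bases downstream of AKR1B1 on the same strand, the gene of aldose reductase, which turns glucose into sorbitol. AKR1B1 had 699 counts in DSS with polydatin, 812 in DSS and 463 in control. That neighbour was higher in DSS too, at 1.72 times control (1.53 to 1.93), short of 2-fold.

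LINC01134 (chromosome 1, 3900372 to 3917225) had 84 counts in DSS with polydatin, 70 in DSS and 17 in control, and DSS stood at 4.04 times control (2.35 to 7.32). Its start lies beside that of C1orf174 on the opposite strand, with 79 bases between the 2 genes. C1orf174 had 336 counts in DSS with polydatin, 352 in DSS and 395 in control, and at 0.873 times control in DSS (0.754 to 1.01) it lay on the other side of 1. LINC00310 (chromosome 21) had 66 counts in DSS with polydatin, 36 in DSS and 9 in control. Its order was that of LINC01559, with DSS at 3.92 times control (1.85 to 9.26). The nearest protein-coding gene, MRPS6 for a mitochondrial ribosomal protein, lies 14690 bases away and was itself called higher, at 2.84 times control in DSS (2.62 to 3.08). Of the 22 members called for DSS against control whose nearest protein-coding gene reached 20 counts, LINC00310 was the only one whose neighbour was called, and it was called the same way. Over all genes with the same count minimum, 5.88% were called in that comparison.

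LINC02701 and LINC00494, both with over 100 counts in DSS, were also called higher. LINC02701 had 229 counts in DSS with polydatin, 258 in DSS and 97 in control. Here DSS was the highest library, at 2.61 times control (2.06 to 3.33). LINC00494 had 225 counts in DSS with polydatin, 152 in DSS and 63 in control, with DSS at 2.37 times control (1.75 to 3.23). LINC02600, LINC03016 and LINC00472 had between 22 and 39 counts in DSS and between 5 and 12 in control. Their ratios were 3.19 for LINC02600 (1.63 to 6.68), 5.10 for LINC03016 (1.93 to 17.0) and 4.31 for LINC00472 (1.59 to 14.6). LINC00472 has been studied as a growth-restraining RNA in breast cancer. The other 9 called higher had 15 to 34 counts in DSS and ratios of 2.29 to 3.68, among them LINC01503, which is tied to squamous cell carcinomas, with 27 counts in DSS and 10 in control.

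Of the 7 members called lower in DSS, LINC01572 had the most counts. LINC01572 (chromosome 16, 72283301 to 72665009) had 81 counts in DSS with polydatin, 66 in DSS and 137 in control. The control library was high, and DSS stood at 0.472 times control (0.347 to 0.638), or at 0.511 and not called with libraries thinned to equal totals. LINC01133, which has been reported to bind a splicing factor in colorectal cancer cells, had 9 counts in DSS with polydatin, 4 in DSS and 27 in control. LINC01234, studied in gastric cancer, had 4 counts in DSS with polydatin, 5 in DSS and 28 in control. In both RNAs the control library alone reached 20 counts, with DSS at 0.145 times control (0.0369 to 0.417) for LINC01133 and at 0.175 times (0.0528 to 0.459) for LINC01234. LINC01232 had 20 counts in DSS with polydatin, 25 in DSS and 54 in control, a ratio of 0.454 for DSS against control (0.271 to 0.742). It overlaps TM9SF2 on the opposite strand, a gene with 4687, 4756 and 4245 counts in the same order of libraries, so its reads cannot be told apart from that gene's. LINC00471, LINC02982 and LINC02950 had ratios of 0.298 to 0.474.

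**Figure D4:**
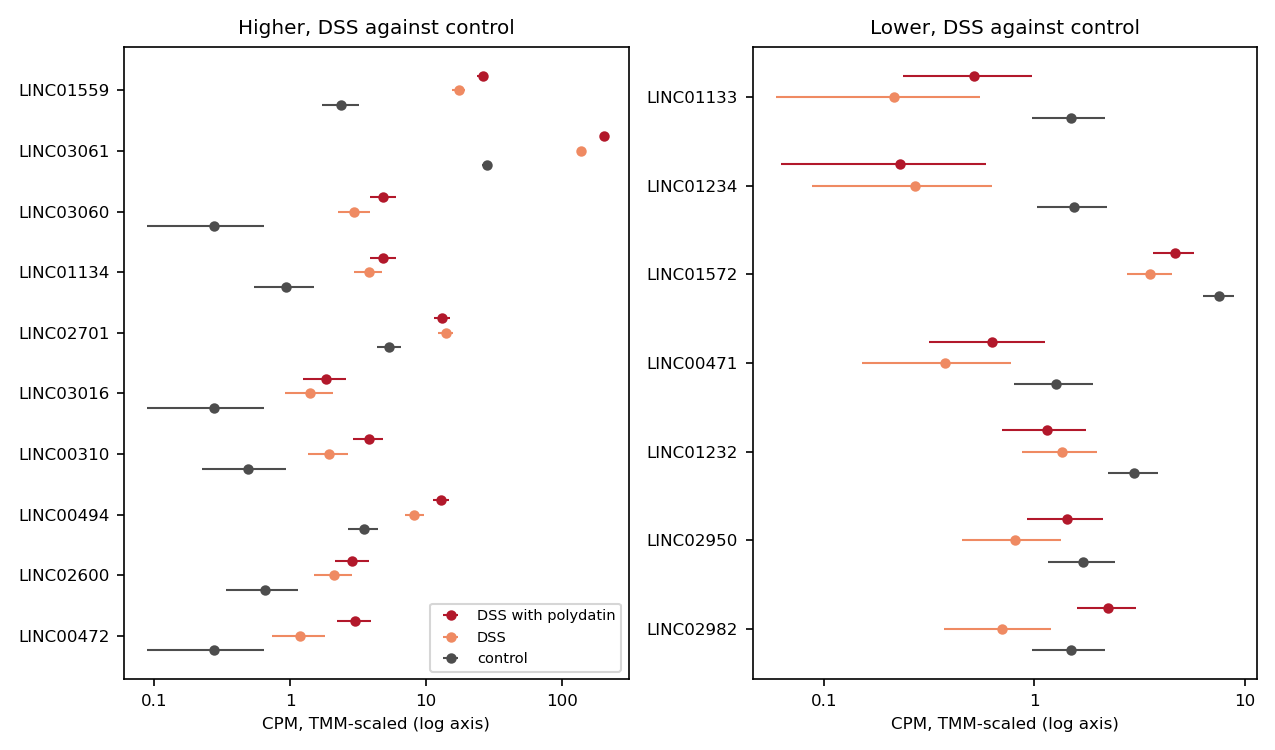
Level in each library of the 10 LINC-named RNAs called higher in DSS than in control whose interval bound lay farthest from 1, and of the 7 called lower, as TMM-scaled CPM on log axes. Points are single libraries and bars exact 95% Poisson intervals; control lies lowest in the left panel, and in the right panel it lies highest except for LINC02982.

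For DSS with polydatin against DSS, 9 members were called higher (4.35%), beside 1.84% of all genes with the same minimum, and 3 were called lower (1.45%), beside 0.446%. In the band of 20 to 49 counts 7.23% of members were called higher. This lay beside 8.67% of protein-coding genes, 8.44% of the other long noncoding genes and 7.90% of all genes. Called lower in that band were 3.61% of members, beside 1.94% of all genes. At 200 counts or more 0 of 43 members were called in either direction, beside 1.67% of the other long noncoding genes and 0.355% of all genes. The median log2 ratio of members was 0.12, beside -0.02 over all genes with the same minimum. A total of 129 members (62.3%) lay above the DSS level, as did 60.5% of the other long noncoding genes and 46.4% of protein-coding genes. That share also depends on the count: in the band of 20 to 49 counts it was 62.7% of members and 65.4% of protein-coding genes, in that of 50 to 199 counts 71.6% and 62.1%, and at 200 counts or more 44.2% and 41.5%. This comparison shares the DSS library with the preceding one, so the values of a member in both are not independent.

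LINC00862 (chromosome 1, 200253419 to 200400705) had 83 counts in DSS with polydatin, 34 in DSS and 39 in control. The polydatin library was the high one, at 2.59 times DSS (1.72 to 3.99), while DSS and control lay close to each other. LINC02889 showed the same order, with 95 counts in DSS with polydatin, 49 in DSS and 52 in control and a ratio of 2.06 (1.44 to 2.97). LINC03013 had 26 counts in DSS with polydatin, 6 in DSS and 5 in control, and so entered through the polydatin library alone, at 4.60 times DSS (1.85 to 13.7). LINC01764 had 36 counts in DSS with polydatin, 12 in DSS and 5 in control, a ratio of 3.19 (1.62 to 6.73). It too entered through the polydatin library alone. LINC00239 had 40 counts in DSS with polydatin and 20 in DSS, at 2.13 times DSS (1.21 to 3.84).

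LINC00472, LINC01564 and LINC01293 were called higher in both comparisons. LINC00472 had 52 counts in DSS with polydatin, 22 in DSS and 5 in control, with DSS with polydatin at 2.51 times DSS (1.5 to 4.34). LINC01564 had 48 counts in DSS with polydatin, 23 in DSS and 7 in control, with ratios of 2.22 for DSS with polydatin against DSS (1.32 to 3.82) and 3.22 for DSS against control (1.34 to 8.89). It lies 11410 bases from GCLC, the gene of the catalytic subunit of glutamate-cysteine ligase, which makes the first step of glutathione synthesis and is a known NRF2 target. GCLC had 3940 counts in DSS with polydatin, 2976 in DSS and 2050 in control. Its order was that of LINC01564 with smaller ratios, 1.41 for DSS with polydatin against DSS (1.34 to 1.48) and 1.42 for DSS against control (1.35 to 1.51). LINC01293 had 43 counts in DSS with polydatin, 22 in DSS and 7 in control, with DSS with polydatin at 2.08 times DSS (1.22 to 3.65). With 2 counts added in each library LINC01293 stood at 1.99 times DSS (1.19 to 3.42) and was not called. It lies 1840 bases from LINC01291 on the same strand, a member with 33, 21 and 8 counts in the same order of libraries.

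Some members stood on opposite sides of DSS. LINC02520 had 9 counts in DSS with polydatin, 34 in DSS and 11 in control. It reached 20 counts in DSS alone and so entered through the library where it stood high. DSS stood at 3.03 times control (1.5 to 6.63), and DSS with polydatin at 0.281 times DSS (0.119 to 0.599). LINC02982 had 39 counts in DSS with polydatin, 13 in DSS and 27 in control. DSS was low there, at 0.472 times control (0.224 to 0.947), and DSS with polydatin stood at 3.19 times DSS (1.67 to 6.51). LINC01126, divergent from the gene of the mRNA-decay factor ZFP36L2, had 16 counts in DSS with polydatin, 47 in DSS and 24 in control. Its ratio was 0.362 for DSS with polydatin against DSS (0.191 to 0.650), while ZFP36L2 itself had 6188, 7045 and 7170 counts in the same order of libraries. LINC02675, with 7, 19 and 20 counts in that order, was the remaining member called lower. Its ratio of 0.391 (0.139 to 0.972) became 0.416 and was no longer called with total-count scaling.

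**Figure D5:**
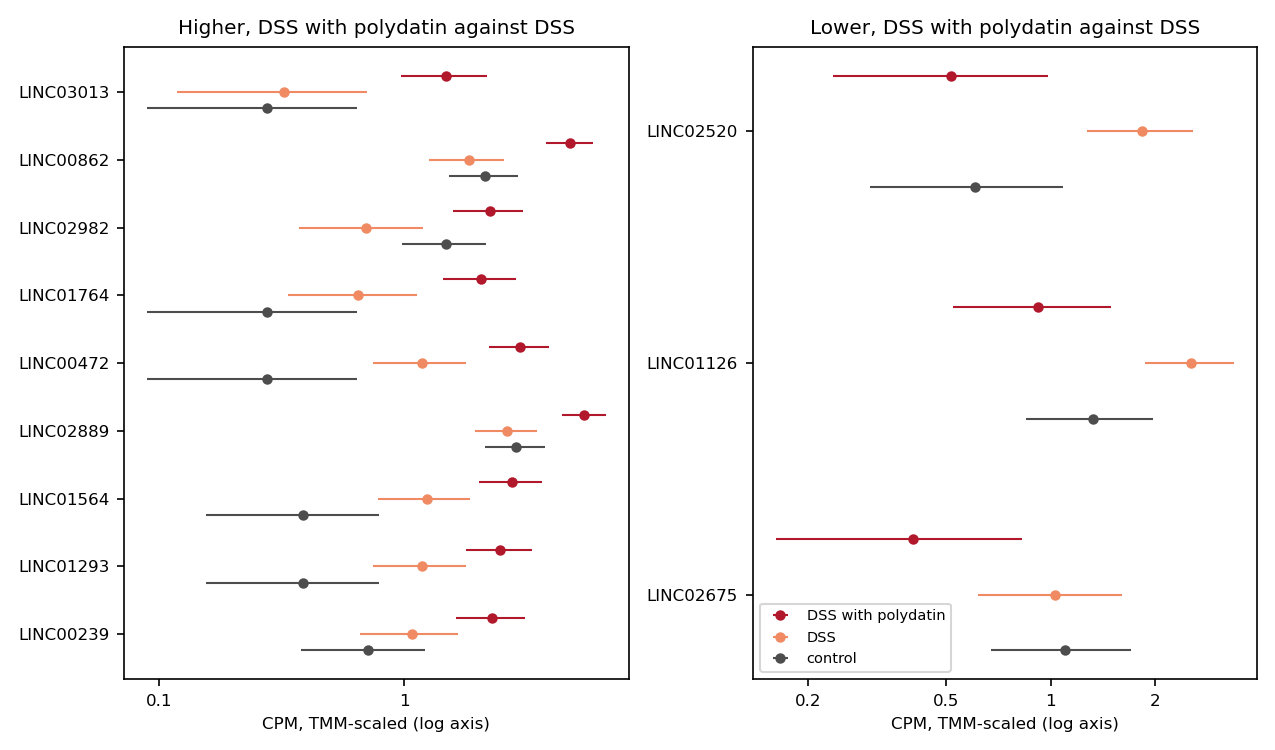
Level in each library of the 9 LINC-named RNAs called higher in DSS with polydatin than in DSS and of the 3 called lower, as TMM-scaled CPM on log axes. Points are single libraries and bars exact 95% Poisson intervals; in the left panel the polydatin library lies highest for each RNA.

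For DSS with polydatin against control, 31 members were called higher (15.0%), beside 8.42% of all genes with the same minimum, and 9 were called lower (4.35%), beside 3.28%. By count, 19.3% of members and 21.4% of protein-coding genes were called higher in the band of 20 to 49, 13.6% and 16.2% in that of 50 to 199, and 9.30% and 4.86% at 200 or more. In the same bands 16.7%, 10.4% and 7.22% of the other long noncoding genes were called higher. The shares of all genes were 17.6%, 14.4% and 4.89%. Called lower in these bands were 6.02%, 3.70% and 2.33% of members, beside 6.60%, 4.41% and 2.28% of all genes. LINC03060 stood at 17.5 times control (7.21 to 55.3), LINC01559 at 11.0 times (8.03 to 15.4) and LINC03061 at 7.17 times (6.53 to 7.88). LINC00472 stood at 10.8 times control (4.36 to 34.8) and LINC00310 at 7.64 times (3.79 to 17.4). These 5 were called higher in DSS against control as well, and the control library enters both. Among the 9 called lower, LINC02904 had 105 counts in DSS with polydatin, 129 in DSS and 249 in control. Its ratio of 0.439 to control (0.346 to 0.554) was called, while that of DSS to control, 0.508, fell just short of 2-fold. LINC02562 had 56 counts in DSS with polydatin, 96 in DSS and 139 in control, and LINC02086 had 52, 80 and 111 counts in that order, with ratios of 0.420 (0.302 to 0.576) and 0.488 (0.344 to 0.684) for DSS with polydatin against control. With a trend on GC content and length removed, LINC02562 stood at 0.561 and LINC02086 at 0.547 and neither was called. In all, 159 of 207 members were called in none of the 3 comparisons, and the matching share over all genes was not computed. For DSS against control 12.6% of members were called either way, beside 5.88% of all genes. The shares were 5.80% beside 2.28% for DSS with polydatin against DSS, and 19.3% beside 11.7% for DSS with polydatin against control.

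Of 36 LINC RNAs with a literature of their own, 19 reached the count minimum. For DSS against control 2 of these were called higher (LINC00472 and LINC01503) and 2 lower (LINC01133 and LINC01234), where the shares over all genes were 4.16% and 1.72%. For DSS with polydatin against DSS 2 were called higher (LINC00472 and PRECSIT, whose older symbol was LINC00346 and which is no member) and 0 lower, where the shares over all genes were 1.84% and 0.446%. LINC00511, reported to favour growth in several cancers, had 226 counts in DSS with polydatin, 407 in DSS and 355 in control. The polydatin library was the low one, at 0.590 times DSS (0.499 to 0.696), short of 2-fold. LINC00261, transcribed beside FOXA2 in endoderm-derived cells, had 100, 101 and 83 counts in DSS with polydatin, DSS and control, with DSS at 1.19 times control (0.883 to 1.61). LINC00467, from which a small protein has been described in colorectal cancer, had 68 counts in DSS with polydatin, 59 in DSS and 111 in control. DSS stood at 0.521 times control (0.373 to 0.721), and no call was made. LINC00649 stood at 1.27 times control in DSS (1.11 to 1.46) and LINC00659 at 1.75 times DSS in DSS with polydatin (1.10 to 2.83). LINC00339, LINC00662, LINC00685 and LINC01089 had ratios of 0.684 to 1.07 for DSS against control.

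The position of members relative to protein-coding genes was also set beside their ratios. By GENCODE 29, 63 members lay over 50 kb from the nearest protein-coding gene, 25 began within 10 kb downstream of one on the same strand and 21 were divergent, with starts within 5 kb on opposite strands. Of the 21 divergent members, 4 were called higher and 0 lower for DSS against control; of the 25 downstream members, 4 were higher and 1 lower; of the 63 distant ones, 4 were higher and 2 lower. Over all members these shares were 9.18% and 3.38%, and over all genes 4.16% and 1.72%, and the positions were not tested against each other. Over 155 members whose nearest protein-coding gene reached 20 counts, Pearson's r between the log2 ratio of the member and that of its neighbour was 0.08 for DSS against control and 0.14 for DSS with polydatin against DSS. For the 24 downstream pairs it was 0.42 and 0.21, and for the 20 divergent pairs -0.07 and 0.33. These are descriptions across genes of the same 2 libraries, and paired genes may share reads.

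Genes that process such RNAs were given from fixed lists. Of 21 genes of the nuclear RNA exosome and its adaptors, 0 were called in either direction for DSS against control. The same held for DSS with polydatin against DSS, where 0 were called. Over all genes with the same minimum the shares called were 5.88% and 2.28%, and at 200 counts or more 2.97% and 0.355%. The median log2 ratio was -0.22 for DSS against control, beside -0.01 over all genes, and -0.19 for DSS with polydatin against DSS. For DSS with polydatin against control 1 was called, EXOSC5, at 0.359 times control (0.297 to 0.432), beside 11.7% of all genes. EXOSC8, a subunit of the exosome ring, stood at 0.633 times control in DSS (0.584 to 0.686). ZCCHC8 stood at 0.671 times (0.608 to 0.739) and EXOSC5 at 0.671 times (0.578 to 0.778). MTREX, the helicase that feeds RNA to the exosome, stood at 0.742 times control (0.706 to 0.779). On the other side of 1, where 6 of the 21 lay, EXOSC4 stood at 1.43 times control (1.11 to 1.83) and RBM7 at 1.14 times (1.05 to 1.24). Of 15 Integrator genes, whose complex ends the transcription of many noncoding RNAs, 0 were called in any comparison. Their medians were -0.13 for DSS against control and -0.21 for DSS with polydatin against DSS. Of 20 cleavage, polyadenylation and termination genes, 0 were called in any comparison, with medians of -0.13 and -0.24 in the same order. Among 23 well-known long noncoding RNAs with other symbols, 2 were called higher and 0 lower for DSS against control, and 0 were called for DSS with polydatin against DSS. NEAT1, the scaffold of nuclear paraspeckles, had 26406 counts in DSS with polydatin, 18560 in DSS and 8332 in control, and MIR22HG, the host of a microRNA, had 840, 624 and 285 counts in that order. NEAT1 stood at 2.18 times control in DSS (2.13 to 2.24) and MIR22HG at 2.15 times (1.86 to 2.48).

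LINC-named genes lay close to the count minimum on both sides. A highest count of 20 was shared by 6 members, and 1 LINC-named gene had a highest count of 19 and 7 had one of 18. Of those just inside, LINC02882 had 20, 16 and 7 counts in DSS with polydatin, DSS and control, LINC02675 had 7, 19 and 20, and LINC01414 had 12, 14 and 20. Of those just outside, LINC02937 had 12, 19 and 5 counts, LINC01719 had 17, 18 and 10, and LINC00870 had 9, 14 and 18. Of the members, 27 reached 20 counts in 1 library alone, 14 of them in control, 9 in DSS with polydatin and 4 in DSS.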

How the data were processed

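Raw read counts for each Ensembl identifier were deposited, which the authors made from reads aligned with HISAT2 to GRCh38, per the submitters' processing notes. How reads were counted (program, annotation, strand) is not given in the sources used here. Symbols were matched to 60463 identifiers. Positions came from GENCODE 29 (GRCh38) and promoters from RefSeq.

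Counts were scaled by TMM (edgeR 4.0.16, R 4.3.3). Ratios with exact intervals were computed for every gene in Python 3.11.15 with scipy 1.17.1. If either count was 0, 0.5 was added to both. With 1 library per group no test was possible and no p-value is given. Intervals cover counting error only. The ratio and its interval were also run on simulated counts that held counting error only. That run checks the computation and cannot show how cultures or libraries vary. DESeq2 1.42.0 size factors were an alternative.

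Members and lists were chosen with earlier results of these data known. Named members were the 10 most abundant, the called members ranked by the interval bound nearest to 1 (up to 10 each way for DSS against control and for DSS with polydatin against DSS, 5 per direction for the remaining comparison), those of 2 lists of studied LINC RNAs and of RNAs with a small protein, and those at the count minimum. LINC02936, LINC01291, LINC02365 and others called but outside these were only counted or named after their values were seen. LINC01622 and LINC02964 are not in GENCODE 29. Cells given erastin or ferrostatin-1 were not analysed here.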

Additional observations from a re-analysis of the deposited data

How the results depend on the processing

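With 1 library per group nothing could be left out, and no paired analysis was possible because no group has a second library. Of 93 recomputed counts and medians, 68 stayed within 1.5 times the main count or within a range of the median. That range came from the spread of log2 ratios across genes and does not measure counting error. No called ratio changed its side of 1. Uncalled ratios near 1 did: LINC00342 stood at 1.04 times control in DSS once a trend on GC content and length was removed. That setting left 5 of the 9 lower calls for DSS with polydatin against control and added 1, for 6 in all. The 4 lost were LINC02086, LINC02562, LINC02675 and LINC01182. Raising the minimum to 50 counts in 1 library left 9 members higher and 2 lower for DSS against control, 3 and 0 for DSS with polydatin against DSS, and 15 and 4 for DSS with polydatin against control. Asking for a mean count of at least 20 left 4, 1 and 4 called lower in these comparisons. Without a minimum, 11 were lower for DSS against control, 16 were higher and 6 lower for DSS with polydatin against DSS, and 48 were higher for DSS with polydatin against control. Leaving out members that overlap another gene left 4 lower for DSS against control, 4 higher for DSS with polydatin against DSS, and 20 higher and 4 lower for DSS with polydatin against control. The 1.5-fold call gave 29 higher and 16 lower, 27 and 8, and 49 and 23. Thinning to the smallest library left 4 lower for DSS against control, ending the calls of LINC01572, LINC02950 and LINC02982. Total-count scaling, which shifts each log2 ratio of DSS with polydatin against DSS by 0.088 and against control by 0.107, gave 14 higher for DSS with polydatin against DSS. A minimum of 50 leaves fewer genes, and the members it removes were called more often than those it keeps. For DSS against control 18.1% of members with a highest count of 20 to 49 were called. The share was 8.64% at 50 to 199 counts and 9.30% at 200 or more. For thinning and scaling the cause was not tested. Counting intervals are wide at 20 to 49 counts, and the part of depth in the calls there was not tested.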
